A study of Mus musculus with 4 samples.

Results

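The 10 genes described here carry out the main steps by which a cell shows peptides from its own cytosol on MHC class I molecules. They were taken by name, not by their values, and are 10 of the 32285 genes in the count tables. The libraries were made from draining lymph nodes of wild-type C57BL/6 mice, 2 from Control mice and 2 from mice given 100 µg of extracellular vesicles (EVs) of human induced pluripotent stem cells under the skin. EVs are membrane-bound particles that cells release. The series design and the study give PBS for the Control mice and day 5 for the harvest, whereas the sample labels give 24 h and no treatment for the same libraries, so the time and the Control injection are stated here with that conflict. The comparison asks whether the EV injection changed class I presentation genes in the cells of the node. Each group is 2 libraries, which the study calls biological replicates.

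In class I presentation, the proteasome cuts cytosolic proteins, the TAP transporter moves the peptides into the endoplasmic reticulum, and a loading complex fits them into a heavy chain paired with beta-2 microglobulin. Interferon gamma replaces the catalytic proteasome subunits by those of the immunoproteasome and raises the whole pathway, in part through IRF1. NLRC5 is the class I transactivator, which acts on class I promoters together with the RFX complex, CREB/ATF factors and NF-Y. Among the members, H2-K1 and H2-D1 encode the classical heavy chains of this strain and B2m encodes beta-2 microglobulin. Tap1 and Tap2 encode the transporter, Tapbp encodes tapasin of the loading complex, Psmb8, Psmb9 and Psmb10 encode the immunoproteasome subunits, and Nlrc5 encodes the transactivator.

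The promoters of the heavy chains, B2m and Tap1 are shown because these genes take part in the differences between cell classes described below and are known targets of NLRC5 and of interferon signalling. Each line gives the 250 bases before the RefSeq start of the gene (GRCm38.p6), 5′ to 3′ on the gene's own strand. H2-K1 lies at chr17:34000348-34000597 on the minus strand, H2-D1 at chr17:35262844-35263093, B2m at chr2:122147437-122147686 and Tap1 at chr17:34187306-34187555, all 3 on the plus strand. Capitals mark matches, on either strand, to AANNGAAA (the core of an interferon regulatory factor site), GGGGATTCC (an NF-kappaB site), TGACG (a CRE half-site) and CCAAT (the NF-Y box).
H2-K1: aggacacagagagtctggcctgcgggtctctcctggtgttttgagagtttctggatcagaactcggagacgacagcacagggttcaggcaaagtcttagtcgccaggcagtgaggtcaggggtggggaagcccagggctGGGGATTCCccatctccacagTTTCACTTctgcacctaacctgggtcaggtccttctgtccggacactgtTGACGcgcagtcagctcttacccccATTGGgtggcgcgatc
H2-D1: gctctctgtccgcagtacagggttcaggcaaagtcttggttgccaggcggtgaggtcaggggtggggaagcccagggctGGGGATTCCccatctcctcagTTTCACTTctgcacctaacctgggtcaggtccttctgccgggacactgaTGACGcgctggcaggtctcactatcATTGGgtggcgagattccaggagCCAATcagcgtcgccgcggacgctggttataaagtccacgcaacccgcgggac
B2m: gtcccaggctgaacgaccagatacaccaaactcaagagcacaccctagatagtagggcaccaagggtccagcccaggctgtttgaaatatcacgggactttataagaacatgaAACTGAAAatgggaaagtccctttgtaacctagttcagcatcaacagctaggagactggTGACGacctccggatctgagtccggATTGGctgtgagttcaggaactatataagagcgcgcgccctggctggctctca
Tap1: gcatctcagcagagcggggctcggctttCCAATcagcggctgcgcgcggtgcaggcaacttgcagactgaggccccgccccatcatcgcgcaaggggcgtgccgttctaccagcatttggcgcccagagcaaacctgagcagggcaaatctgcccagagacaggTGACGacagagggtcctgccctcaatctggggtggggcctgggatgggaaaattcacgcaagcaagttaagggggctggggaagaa

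In H2-K1 the NF-kappaB match, the interferon regulatory factor core, the CRE half-site and the CCAAT match (as ATTGG) follow each other in that order towards the start, with first bases at -111, -90, -41 and -16. H2-D1 holds the same order at -171, -150, -101 and -76, with another CCAAT at -53. The H2-K1 window ends before the matching place, so the windows do not show whether H2-K1 holds that CCAAT too. B2m has the interferon regulatory factor core at -137, the CRE half-site at -78 and the CCAAT match at -53. The Tap1 window holds 1 CCAAT and 1 CRE half-site, and it shares 225 bases with the window of Psmb9, which starts in the opposite direction. Of the 8 members with a promoter in the table used, 3 held the interferon regulatory factor core, against 21.3% of the 32536 promoter windows of this length. The CRE half-site was found in 5 of 8, against 17.9%, CCAAT in 6 of 8, against 33.8%, and the NF-kappaB site in 2 of 8, against 0.215%. The CRE half-site and 1 CCAAT match of Tap1 and Psmb9 are the same bases, counted for both genes. The H2-K1 and H2-D1 windows, the 2 with the NF-kappaB match, are also alike, so the 8 windows are not independent of each other. The NF-kappaB string allowed no variable base. Other forms of that site were thus not counted, in the members or in the 0.215%. Within a window, no matches overlapped. These letters are descriptions of the windows and not sites shown to be bound. No window was available for Nlrc5 and Tap2, and those of Tapbp, Psmb8, Psmb9 and Psmb10 were not printed. The Psmb8 and Psmb10 windows held no match to any of these motifs.

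In GENCODE M21 (GRCm38), H2-K1 spans chr17:33996017-34000347, H2-D1 chr17:35262730-35267499 and Tapbp chr17:33915899-33929292. The antigen processing cluster lies between them, with Psmb9 at chr17:34181987-34187764, Tap1 at chr17:34187553-34197225, Psmb8 at chr17:34197721-34201454 and Tap2 at chr17:34203527-34216321. B2m spans chr2:122147686-122153083, Nlrc5 chr8:94434356-94527272 and Psmb10 chr8:105935735-105938444. Reads come from the 3′ ends of transcripts, and in the last 500 bases of their coding transcripts 9 members shared no 90-base window with a transcript of another gene, while H2-K1 shared 2 of 1323. B2m lies inside Patl2, Psmb9 and Tap1 overlap at their starts, and Tap2, Tapbp, Psmb8, Psmb10 and Nlrc5 also overlap genes of the opposite strand. Tapbp overlaps Zbtb22 on the same strand. The use of strand and of intronic reads in the counting is not given in the sources used here, so the values of these overlapping genes are uncertain to that extent.

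The 4 libraries held 50749656 to 70418672 UMIs (unique molecular identifiers, which count captured RNA molecules) in 34323 barcodes, of which 32725 passed the limits on genes, UMIs and mitochondrial share. Any 2 libraries shared 12 to 26 barcodes. Cells were assigned to 5 classes by UMIs of defining genes: B cells by Cd79a, macrophages by at least 2 UMIs of C1qa and C1qb, and dendritic cells by Fscn1, all without Cd3e, and CD4 and CD8 T cells by Cd3e with Cd4 or Cd8a, without the other coreceptor and without Cd79a. The B cell class held 2503 to 4866 cells a library, CD4 T cells 923 to 1624, CD8 T cells 1003 to 1861, dendritic cells 72 to 123 and macrophages 42 to 91. In B cells the B cell markers, and in both T cell classes the T cell markers, had the highest sum of all lists. In macrophages the summed level of 5 further B cell markers (Ms4a1, Cd79b, Bank1, Pax5 and Ebf1) was 2713, 2424, 4432 and 5200 UMIs per 1000000 UMIs of the class (CPM) in Control 1, Control 2, EV 1 and EV 2, above that of 6 further macrophage markers, at 2513, 1718, 1618 and 1481 CPM. A Cd79a UMI was found in 11.9% to 23.9% of the macrophage class and in 13.8% to 23.6% of the dendritic cell class, so fold changes, level differences and the immunoproteasome ratio are also given without these cells, while class means and ranks include them. Between 9 and 27 cells of the macrophage class and 21 to 28 of the dendritic cell class in each library also met another gate. The 7 further dendritic cell markers summed to 2915 to 3719 CPM in the dendritic cell class, with none at 0 in any library. Ccl5, a chemokine gene listed here as a CD8 T cell marker, was above that sum, at 3061, 4327, 7204 and 6973 CPM, while the T cell markers were at 38.7 to 117 CPM.

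Class I genes were lowest in B cells and highest in dendritic cells or macrophages. By the mean CPM of the 4 libraries, B cells ranked last of the 5 classes for 8 of the 10 members, and dendritic cells ranked first for 6 and macrophages for 4. The exceptions at the bottom were Tap1 and Tap2, which were lowest in macrophages. The values below are CPM of the UMIs of genes tested in each class, after scaling within the class. Those genes held 61278 of 70039 UMIs in macrophages of Control 1, and 13686200 of 13699925 in its B cells. CPM is thus raised in macrophages, and their ranks depend on this choice. The order of classes is a description, and the differences between classes were tested in fits of the raw counts that hold both classes. Those fits placed H2-K1 above B cells by log2 0.75 in dendritic cells and 0.63 in macrophages. Nlrc5 was lower in macrophages than in B cells there (-0.28, not called).

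**Figure D1:**
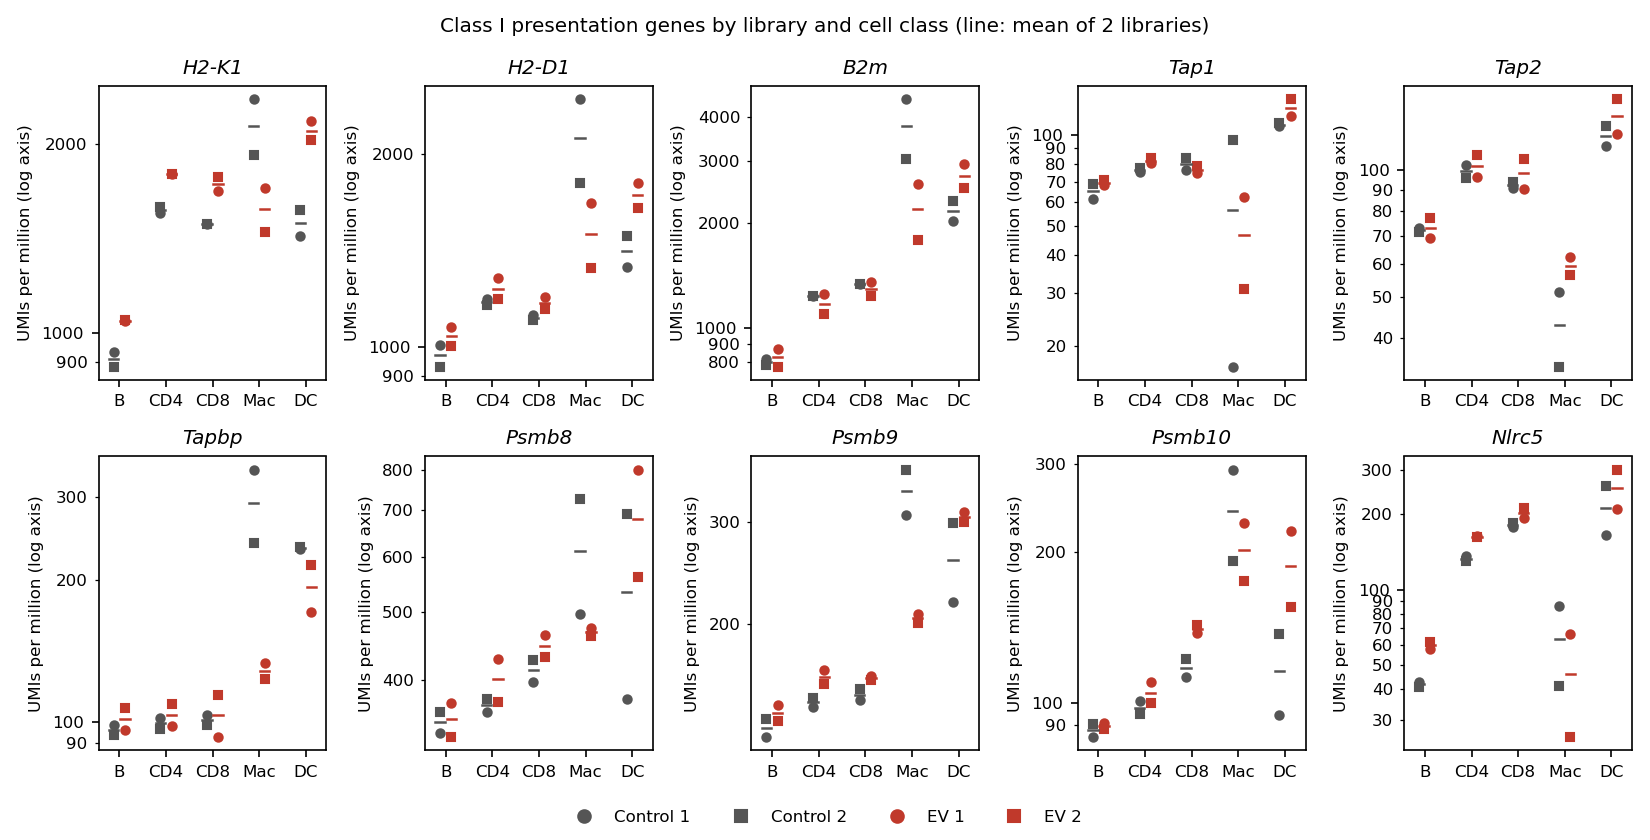
CPM (log axis, each panel with its own range) of the 10 members in each library, by cell class: B cells (B), CD4 T cells (CD4), CD8 T cells (CD8), macrophages (Mac) and dendritic cells (DC), with lines at the mean of 2 libraries. B cells lie lowest for 8 members, and the Nlrc5 points of both EV libraries in B cells, 58.0 and 61.5 CPM, lie above those of both Control libraries, 42.8 and 40.9 CPM.

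Among the heavy chain genes, H2-K1 averaged 978 ± 81.5 CPM (SD, n = 4 libraries, as for all class means here) in B cells, 1610 ± 142 in CD8 T cells, 1681 ± 129 in CD4 T cells, 1798 ± 356 in dendritic cells and 1856 ± 383 in macrophages. The B cell libraries, at 885 to 1048 CPM, lay apart from the CD8 T cell libraries, at 1489 to 1774 CPM, while all other neighbours in this order overlapped. H2-D1 ran from 1004 ± 58.3 CPM in B cells to 1811 ± 464 CPM in macrophages, and its B cell libraries also lay below those of every T cell library. The heavy chains thus separated B from T cells, and H2-K1 did so by more: H2-K1 was 0.565 times the CD4 T cell level in B cells (log2 difference -0.82, SE 0.03, edgeR adjusted p = 1.4e-08), and H2-D1 was 0.810 times (-0.30, SE 0.03, adjusted p = 1.6e-05).

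B2m averaged 814 ± 43.3 CPM in B cells, 1206 ± 70.8 in CD4 T cells, 1319 ± 55.4 in CD8 T cells, 2447 ± 387 in dendritic cells and 2981 ± 1140 in macrophages. Its macrophage libraries ranged from 1784 to 4499 CPM and overlapped those of dendritic cells, whereas dendritic cells and CD8 T cells did not overlap. It was 2.87 times higher in macrophages than in B cells (log2 1.52, SE 0.15, adjusted p = 1.1e-22) and 2.77 times higher in dendritic cells (log2 1.47, SE 0.12, adjusted p = 2.0e-14).

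Of the transport and loading genes, Tap1 averaged 67.2 ± 3.97 CPM in B cells, 78.4 ± 3.91 in CD8 T cells, 79.4 ± 3.58 in CD4 T cells and 115 ± 10.8 in dendritic cells. Tap2 averaged 72.7 ± 3.46, 95.4 ± 7.41, 101 ± 6.25 and 128 ± 14.2 CPM in the same classes. By these CPM, both transporter genes separated B cells, T cells and dendritic cells without overlap, and neither separated CD4 from CD8 T cells. With cells thinned to 1000 UMIs, the log2 differences of dendritic cells from B cells were 0.086 for Tap1 and 0.14 for Tap2, neither called. In macrophages both genes rested on 1 to 15 UMIs a library. Tapbp was at 98.8 ± 5.77 CPM in B cells, 101 ± 5.62 in CD4 T cells and 102 ± 8.9 in CD8 T cells, with overlapping libraries, and at 210.0 ± 103 in macrophages and 214 ± 29.6 in dendritic cells.

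The mean of each immunoproteasome subunit rose from B cells to CD4 T cells to CD8 T cells. Psmb8 averaged 349.7 ± 19.2, 384 ± 30.4 and 431 ± 27.2 CPM in B cells, CD4 T cells and CD8 T cells, with overlap at each step, and 608 ± 182 CPM in dendritic cells. Psmb9 averaged 136 ± 7.05, 154 ± 9.92 and 156 ± 6.58 CPM in the same lymphocytes, also with overlap at each step, and 283 ± 43.5 CPM in dendritic cells. For Psmb10, whose averages were 89.0 ± 2.64, 101 ± 6.32 and 129 ± 14.1 CPM, the libraries of the 3 lymphocyte classes did not overlap.

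Nlrc5 had the widest range of class means of the 10 members, as a ratio of highest to lowest. It averaged 50.8 ± 10.5 CPM in B cells, 148 ± 17.3 in CD4 T cells, 192 ± 15.1 in CD8 T cells and 233 ± 59 in dendritic cells. No library of one lymphocyte class overlapped another class, while the CD8 T cell and dendritic cell libraries overlapped. The 54.8 CPM in macrophages rested on 5 to 16 UMIs a library.

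Tested across all genes with edgeR's quasi-likelihood test, at an adjusted p under 0.05, 9 of the 10 members were lower in B cells than in CD4 T cells and none was higher, against 33.3% of all 13546 genes called lower. Tapbp was the one not called (log2 -0.08, SE 0.04, adjusted p = 0.093). With cells thinned to 1000 UMIs, Psmb8, Psmb9 and Psmb10 were not called either, at -0.032, -0.13 and -0.091 (adjusted p from 0.164 to 0.674). Against CD8 T cells, all 10 were called lower in B cells, where 34.7% of all genes were. The member medians were -0.29 and -0.45 on the log2 scale, beside medians of 0.0078 and 0.018 over all genes tested. Nlrc5 had the largest difference of the members in both, at 0.332 times the CD4 T cell level (log2 -1.59, SE 0.05, adjusted p = 7.1e-09) and 0.245 times the CD8 T cell level (log2 -2.03, SE 0.07, adjusted p = 1.1e-08).

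CD8 T cells differed from CD4 T cells in 5 members, all higher in CD8 T cells, against 19.6% of genes called higher. These were Nlrc5 (log2 0.45, SE 0.04), Psmb10 (0.42, SE 0.05), Psmb8 (0.24, SE 0.02), B2m (0.20, SE 0.02) and Psmb9 (0.09, SE 0.03), with adjusted p from 7.7e-07 to 0.0277. Psmb9 was not called with DESeq2 (adjusted p = 0.240), when thinned (0.603), or without Control 1, Control 2 or EV 2 (0.0916 to 0.115), and Tapbp was called without EV 1 (0.11, adjusted p = 0.0430). The heavy chain genes differed between the T cell classes by 0.0078 and -0.0067 on the log2 scale, each with an SE of 0.018, and were not called.

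In dendritic cells all 10 members were called higher than in B cells, against 24.2% of all genes. The differences ran from 0.53 for H2-D1 to 2.10 for Nlrc5 on the log2 scale, with a median of 0.73 beside -0.13 over all genes. In macrophages 6 of 10 were higher than in B cells, against 14.7% of all genes: H2-K1, H2-D1, B2m, Tapbp, Psmb9 and Psmb10. Here the median over all genes tested was -0.27, so a log2 value of 0 is not the middle of the genes. Psmb8, Tap1, Tap2 and Nlrc5 were not called, at 0.35, -0.53, -0.69 and -0.28. Without the Cd79a-positive cells, the 10 members stayed called in dendritic cells, with Nlrc5 at 2.29, whereas in macrophages Tapbp was no longer called (0.63, adjusted p = 0.0817) and Tap1 and Tap2 were called lower, at -1.16 and -1.24. Tapbp in macrophages was also not called without Control 1 (adjusted p = 0.0976) or Control 2 (0.234), and without Control 2 neither were H2-D1 (0.0509) and Psmb9 (0.209), while Tap1 was called lower. When thinned, which also left out cells under 1000 UMIs, 2 members were called higher in macrophages, against 8.2% of genes. In dendritic cells 6 were, against 12.3%. H2-D1, Tap1, Tap2 and Psmb10 lost the call there, at 0.26, 0.086, 0.14 and 0.15 (edgeR adjusted p from 0.213 to 0.883).

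**Figure D2:**
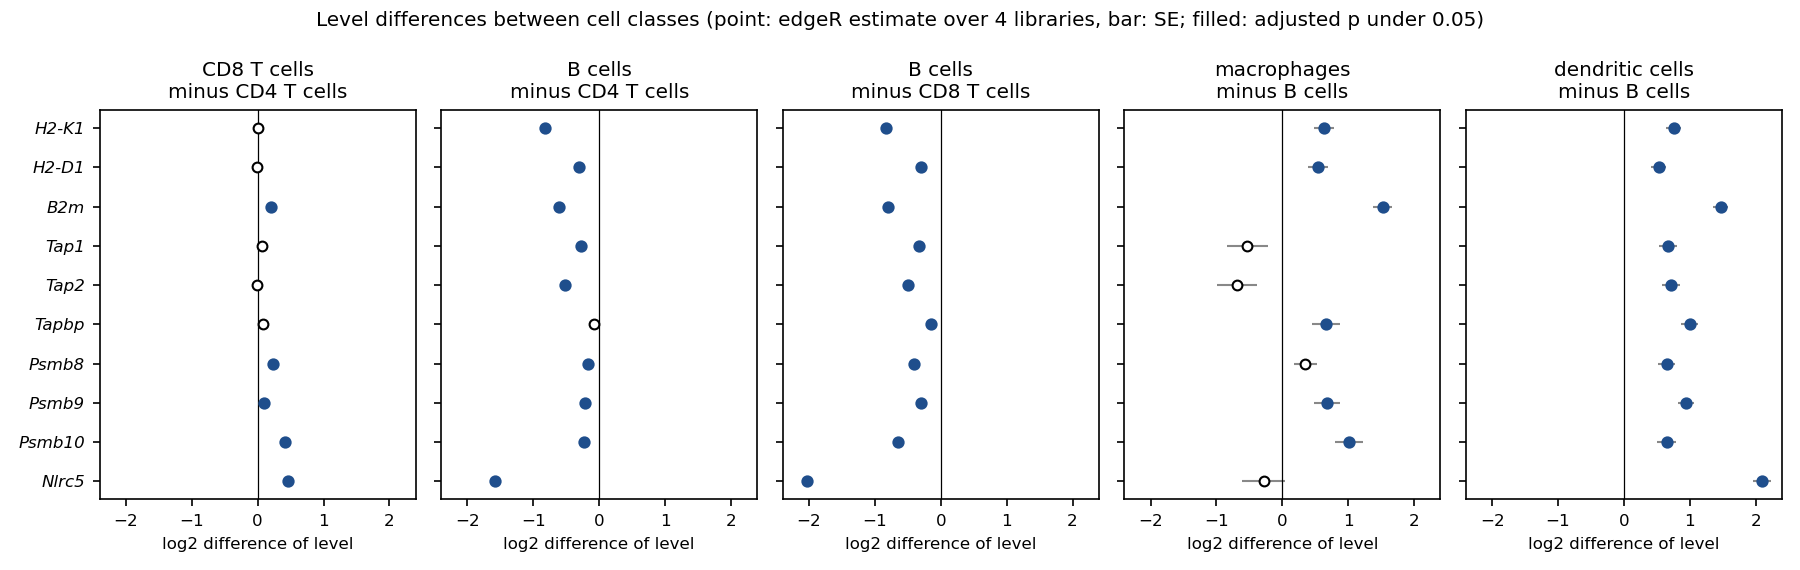
Log2 differences of level between pairs of cell classes for the 10 members, with points at edgeR estimates over 4 libraries and bars of 1 SE; filled points have an adjusted p under 0.05. The members lie left of 0 in B cells against both T cell classes and right of 0 in dendritic cells against B cells, with Nlrc5 farthest out at -1.59, -2.03 and 2.10.

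The 5 non-member genes whose log2 CPM followed the members' mean most closely over the 20 sums of library and class were Psme2 (r = 0.968), Id2 (0.951), Rap2b (0.946), Traf1 (0.939) and Glipr1 (0.933), of 8574 genes. Psme2 encodes a subunit of the PA28 proteasome activator. The 20 sums share 4 libraries and differ in depth, so these correlations only describe the pattern over classes. Measured the same way, Psmb9 followed the other members most closely (0.834) and Tap1 and Tap2 least (0.107 and 0.145).

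After EV injection, 1 member passed the test in 1 class: Nlrc5, the class I transactivator, rose in B cells. Its B cell level was 42.8 and 40.9 CPM in Control 1 and 2, from 597 and 555 UMIs, and 58.0 and 61.5 CPM in EV 1 and 2, from 1772 and 1612 UMIs. The 2 groups did not overlap, with the EV libraries higher. The rise was 1.43-fold (log2 0.51, SE 0.09, edgeR adjusted p = 0.0223), in a fit that called 2.55% of the 13270 genes and 1.57% as higher. The call did not hold without Control 1 (0.55, adjusted p = 0.136) or without Control 2 (0.49, adjusted p = 0.155), nor with each cell thinned to 1000 UMIs (0.38, adjusted p = 0.186).

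The B cells of the 2 groups also differed in depth, with medians of 4141.5 and 4905 UMIs a cell in the Control and 5811 and 5615 in the EV libraries. They made up 37.0% and 31.7% of kept cells in the Control and 59.6% and 50.4% in the EV libraries. The part of these differences in the result was not tested. In B cells, 6 T cell markers summed to 107 and 91.8 CPM in the Control libraries and to 49.7 and 53.0 CPM in the EV libraries, and T cells held more Nlrc5 than B cells. Among B cells without a UMI of these T cell markers, a choice made after seeing the data, the rise of Nlrc5 was 0.54 (SE 0.10, adjusted p = 0.0190). The sum of the 7 dendritic cell markers went the other way, from 416 and 376 CPM to 722 and 812 CPM, and dendritic cells also held more Nlrc5 than B cells (log2 2.10). No marker was at 0 in any library, and their part in the result was not tested. Most of this sum and of its rise was Cd83, at 307 and 279 against 606 and 710.3 CPM. Ccr7 was at 75.7 to 92.8 CPM, and Ccl22, Cacnb3, Apol7c and Zbtb46 were each at 0.224 to 9.11 CPM. B cells with a UMI of Ighd, the constant region of IgD, made up 2899 of 3016, 2386 of 2503, 4683 of 4866 and 4176 of 4301 B cells, and Nlrc5 rose there by 0.52 (SE 0.09, adjusted p = 0.0186). In the 117 to 183 B cells a library without an Ighd UMI, the estimate was as large, at 0.52, and was not called (adjusted p = 0.569).

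The other 9 members in B cells had log2 fold changes from 0.015 for Psmb8 to 0.20 for H2-K1, and none was called (adjusted p from 0.356 to 0.959). H2-K1 was at 933 and 885 CPM in the Control and 1044 and 1048 CPM in the EV libraries, which did not overlap, a pattern shown in that direction by 25.6% of all genes. B2m, at 818 and 787 CPM against 874 and 778 CPM, overlapped, with a log2 fold change of 0.042 (SE 0.11). All 10 members had a positive estimate, as 49.7% of all genes did, with a median of 0.083 beside -0.0016 over all genes.

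**Figure D3:**
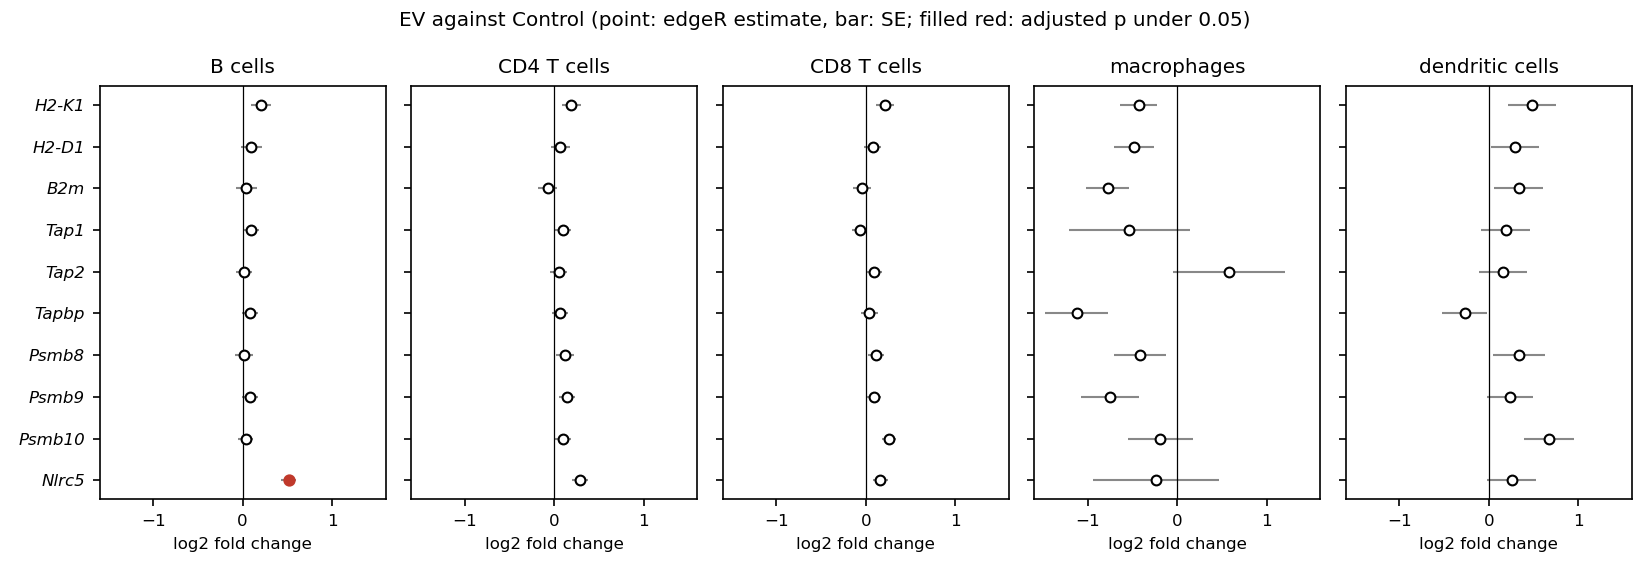
Log2 fold change of EV against Control for the 10 members in each of 5 cell classes, with points at edgeR estimates and bars of 1 SE; the filled red point has an adjusted p under 0.05. Nlrc5 in B cells, at 0.51, is the one filled point, and the bars are widest in macrophages, where Nlrc5 has an SE of 0.71.

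In CD4 T cells no member was called, where 1.09% of 11933 genes were. At an unadjusted p under 0.05, 1 of 10 passed, against 16.7% of all genes. This was Nlrc5, at 136 and 130 CPM in the Control and 163 and 162 CPM in the EV libraries (log2 0.29, SE 0.09, adjusted p = 0.135), without overlap. H2-K1, Tap1 and Psmb9 did not overlap either, all higher in EV, which made 4 of 10, against 24.2% of genes. H2-K1 went from 1554 and 1585 to 1793 and 1791 CPM (log2 0.19, SE 0.10, adjusted p = 0.382). Leaving out EV 1 or EV 2 brought Nlrc5 to adjusted p values of 0.00522 and 0.0167, in fits that called 16.5% and 6.87% of all genes.

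In CD8 T cells no member was called, where 2.2% of 12284 genes were, and 1 of 10 had an unadjusted p under 0.05, against 18.2%. This was Psmb10, at 112 and 122 CPM in the Control and 138 and 143 CPM in the EV libraries (log2 0.26, SE 0.08, adjusted p = 0.126). Nlrc5 was at 178 and 184 against 193 and 212 CPM (log2 0.16, SE 0.08, adjusted p = 0.323). H2-K1 was at 1489 and 1493 against 1683 and 1774 CPM (log2 0.21, SE 0.10, adjusted p = 0.282). The libraries of 6 members did not overlap and were higher in EV, as for 24.4% of genes. Without EV 1, Nlrc5, H2-K1 and Psmb10 were called, at 0.24, 0.26 and 0.29, with adjusted p from 0.00187 to 0.0147, in a fit that called 16.9% of all genes.

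The difference of the EV effect between classes was itself tested in fits with a term for each library. The effect on Nlrc5 was larger in B cells than in CD8 T cells by 0.35 on the log2 scale (SE 0.08, adjusted p = 0.0326), and no other member was called, where 1.71% of 13560 genes were. This call was lost with DESeq2 (0.34, adjusted p = 0.348), without upper limits on genes and UMIs (0.31, adjusted p = 0.149), and without Control 1 (0.40, adjusted p = 0.0579) or Control 2 (0.29, adjusted p = 0.308). Against CD4 T cells the B cell effect on Nlrc5 was larger by 0.21 (SE 0.08, adjusted p = 0.299) and was not called, where 1.79% of genes were. No member was called between CD8 and CD4 T cells, macrophages and B cells, or dendritic cells and B cells, where 0.377%, 0.172% and 0.156% of genes were.

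In macrophages 9 of the 10 members had lower estimates in EV, where 49% of all genes had higher ones, and none was called, as no gene of 3497 was (0% called). At an unadjusted p under 0.05, 316 genes passed (9.04%), among them B2m, Tapbp and Psmb9, and DESeq2 called 4 genes and no member. B2m was at 4499 and 3051 CPM in the Control and 2588 and 1784 CPM in the EV libraries (log2 -0.78, SE 0.24, adjusted p = 0.417). Tapbp was at 343 and 240 against 133 and 123 CPM (log2 -1.13, SE 0.35, adjusted p = 0.417), from 20 to 35 UMIs a library. The libraries of 6 members did not overlap and were lower in EV, as for 20.4% of genes. The B cell markers were higher and the macrophage markers lower in the EV libraries of this class, as given above, and 4 plasmacytoid dendritic cell markers summed to 571, 2492, 664 and 1405 CPM in Control 1, Control 2, EV 1 and EV 2. In the same order, 4 CD8 T cell markers, Ccl5 among them, summed to 1656, 746, 252 and 218 CPM. The NK cell markers summed to 14.3, 401, 0 and 4.73 CPM, and the 6 T cell markers to 33.1 to 102 CPM. The part of these differences in the macrophage values was not tested.

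Without the Cd79a-positive cells, the B cell markers fell to 73.7, 97.0, 199.6 and 161 CPM in Control 1, Control 2, EV 1 and EV 2, and the macrophage markers were at 3205, 2272, 2750 and 2513 CPM. Tap1, Tap2 and Nlrc5 had too few UMIs to be tested there. Of the 7 members left, Tapbp had the lowest estimate (-1.31, SE 0.37, adjusted p = 0.769), B2m was at -0.53 (SE 0.30, adjusted p = 0.834), and Psmb10 changed sign, to 0.12 (SE 0.37).

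In dendritic cells 9 of the 10 members had higher estimates in EV, as 49.9% of all genes did, and none was called, where 0.148% of 7421 genes were. At an unadjusted p under 0.05, 1 of 10 passed, against 7.65% of genes: Psmb10, at 94.6 and 137 CPM in the Control and 220 and 155 CPM in the EV libraries (log2 0.67, SE 0.28, adjusted p = 0.537). H2-K1 was at 1427 and 1571 against 2170 and 2026 CPM (log2 0.48, SE 0.27, adjusted p = 0.773). Nlrc5, at 165 and 258 against 209.5 and 301 CPM, overlapped (log2 0.26, SE 0.28). When thinned, Psmb10 was at -0.11 and Nlrc5 at -0.69, and Nlrc5 was also below 0 without Control 1 (-0.0080) or EV 2 (-0.038). Tapbp was lower, at 233 and 235 against 171 and 216 CPM (log2 -0.27, SE 0.25). The libraries of 6 members did not overlap and were higher in EV, against 18% of genes. Ccl5 was also higher in both EV libraries of this class, as given above, and its part in these values was not tested. The B cell markers, at 1419 to 1717 CPM, overlapped between the groups, and without the Cd79a-positive cells the estimates were 0.67 for Psmb10, 0.40 for H2-K1 and -0.22 for Tapbp, none called.

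The immunoproteasome subunits take the places of Psmb5, Psmb6 and Psmb7, so the UMIs of Psmb8, Psmb9 and Psmb10 were divided by those of these 3 constitutive subunits in each library. With 2 libraries against 2, the exact two-sided permutation test used for this ratio cannot go below p = 0.333. In B cells the ratio was 2.45 and 2.33 in the Control and 2.35 and 2.34 in the EV libraries (exact p = 1). In CD4 T cells it was 2.52 and 2.39 against 2.49 and 2.38 (exact p = 0.667), and in CD8 T cells 2.82 and 2.76 against 2.77 and 2.80 (exact p = 1). The lymphocyte ratios of the 2 groups thus overlapped in every class. In macrophages the ratio went from 2.67 and 2.98 to 1.75 and 1.77, and in dendritic cells from 3.16 and 3.36 to 3.70 and 3.70, both without overlap and with an exact p = 0.333, the smallest possible. The macrophage ratio of Control 1 rested on only 29, 18 and 17 UMIs of Psmb8, Psmb9 and Psmb10. Psmb8 to Psmb5 alone was 2.64 and 8.15 in the Control libraries of macrophages. The direction in dendritic cells turned without upper limits on genes and UMIs and with mitochondrial UMIs under 5% (log2 difference -0.10, against 0.18) and when thinned (-0.62). Without the Cd79a-positive cells the ratio went from 2.35 and 2.80 to 1.75 and 2.02 in macrophages, and the log2 difference was 0.061 in dendritic cells (exact p = 0.333 in each). Single pairs moved in different directions in the lymphocytes: Psmb10 to Psmb7 went from 1.97 and 2.24 to 2.44 and 2.91 in CD8 T cells, and Psmb8 to Psmb5 from 4.20 and 3.89 to 3.70 and 3.45 in B cells, each with an exact p = 0.333.

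**Figure D4:**
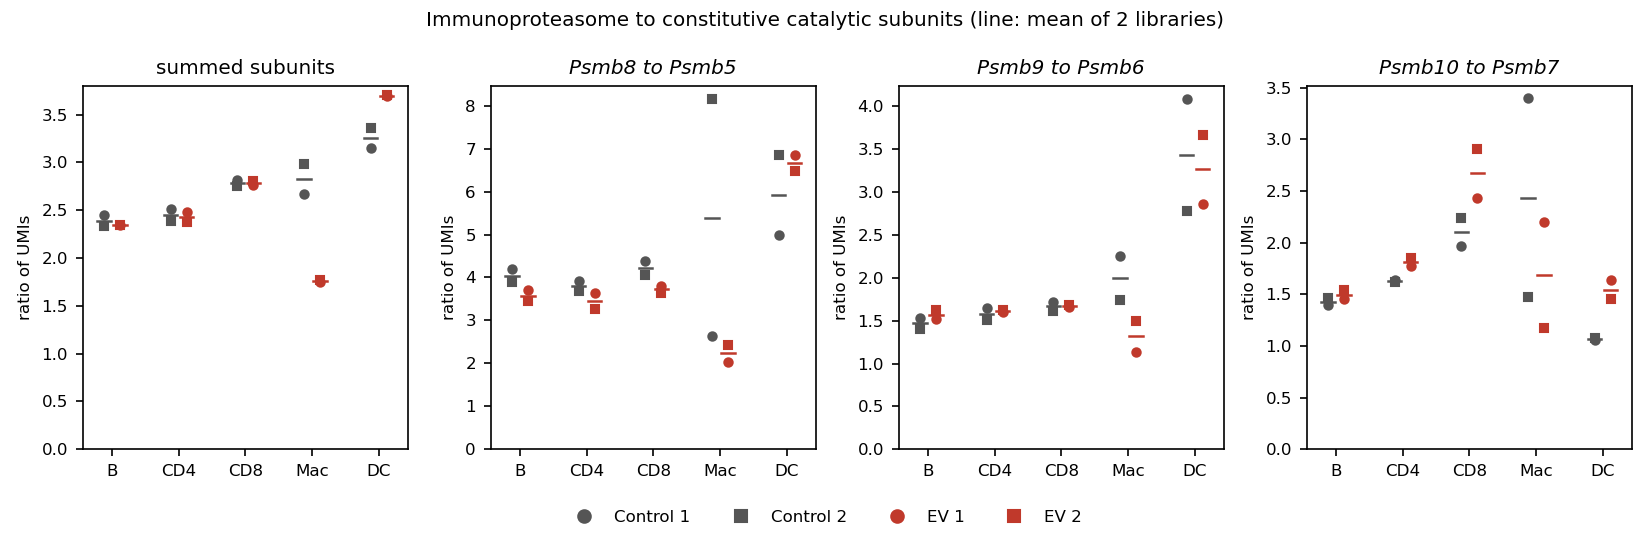
Ratio of UMIs of immunoproteasome to constitutive catalytic subunits in each library, summed and for each pair of subunits that replace each other, by cell class (Mac, macrophages; DC, dendritic cells), with lines at the mean of 2 libraries. The summed ratio of the lymphocytes lies between 2.33 and 2.82 in both groups, while the macrophage and dendritic cell libraries of the 2 groups are apart, in dendritic cells with a direction that turns under other cell filters (log2 difference -0.10 without upper limits, -0.62 thinned). The macrophage ratio of Control 1 rests on only 29, 18 and 17 UMIs of Psmb8, Psmb9 and Psmb10.

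The rest of the pathway was read from 5 lists of 46 genes in all, of which H2-T10 has no row in the files. DESeq2, thinning and leaving out a library were read for the members only, so calls of these other genes were not checked that way. Of 16 regulators (interferon signalling and the factors that bind class I and II promoters), 1 was called higher in each of B cells, CD4 T cells and CD8 T cells, and none lower, against 1.57%, 0.788% and 1.34% of all genes called higher. This was Socs1, a feedback inhibitor of cytokine signalling, in all 3 classes. It went from 5.87 and 7.15 to 19.0 and 17.2 CPM in B cells (log2 1.48, SE 0.14, adjusted p = 0.00347). In CD4 T cells it went from 29.7 and 30.3 to 82.9 and 45.9 CPM (log2 1.09, SE 0.21, adjusted p = 0.0399). In CD8 T cells it went from 31.1 and 33.0 to 78.2 and 51.6 CPM (log2 1.01, SE 0.15, adjusted p = 0.00651). EV 1 was thus above EV 2 in both T cell classes.

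Irf9, a subunit of the complex that type I interferon activates, had an estimate of 0.48 in B cells that was not called (adjusted p = 0.0578). Irf1 had estimates of 0.21, 0.25 and 0.18 in B, CD4 T and CD8 T cells, with adjusted p from 0.284 to 0.346. Rfx5, of the RFX complex, was at -0.26 in B cells and not called (adjusted p = 0.218). The median of the regulators was 0.15 in B cells, 0.21 in CD4 T cells and 0.092 in CD8 T cells, beside -0.0016, 0.00072 and 0.00033 over all genes.

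Of the 4 interferon receptor chains, 1 was called in B cells and 1 in CD8 T cells, where 2.55% and 2.2% of all genes were. Ifngr2, a chain of the interferon gamma receptor, rose in B cells from 89.7 and 88.3 to 117 and 127 CPM (log2 0.45, SE 0.09, adjusted p = 0.0351), by more than in CD4 T cells (by 0.39, adjusted p = 0.0476) and CD8 T cells (by 0.39, adjusted p = 0.0264). Ifngr1, the other chain, rose in CD8 T cells from 121 and 132 to 251 and 170 CPM (log2 0.72, SE 0.14, adjusted p = 0.0228). In B cells it was at 72.3 and 71.8 against 68.3 and 62.0 CPM, and the difference between these classes was itself called (-0.86, SE 0.11, adjusted p = 0.000756).

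Of the 7 chaperone and trimming genes, Calr was called, in CD8 T cells, where 2.2% of all genes were. It encodes calreticulin of the loading complex and went there from 120 and 122 to 152 and 181 CPM (log2 0.47, SE 0.09, adjusted p = 0.0240). Its estimates of 0.61 in B cells and 0.47 in CD4 T cells were not called (adjusted p = 0.0748 and 0.0626). None of the 6 proteasome partners and none of the 11 or 12 tested heavy chain genes of other class I molecules was called in a lymphocyte class. The heavy chain genes had medians of 0.048 in B cells, -0.23 in CD4 T cells and -0.087 in CD8 T cells.

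No gene of these lists was called in macrophages or dendritic cells. The smallest p values in dendritic cells were those of Ciita, the class II transactivator (log2 0.94, SE 0.33, adjusted p = 0.383), Socs1 (1.18, SE 0.53, adjusted p = 0.587) and Nfkb1, a subunit of NF-kappaB (0.55, SE 0.25, adjusted p = 0.614). In macrophages they were those of Irf2 (0.82, SE 0.34), H2-Q7 (-0.80, SE 0.34) and Ciita (0.88, SE 0.41), with adjusted p from 0.526 to 0.556. The comparisons in all 5 classes share the same 4 libraries, so they are not independent of each other.

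**Figure D5:**
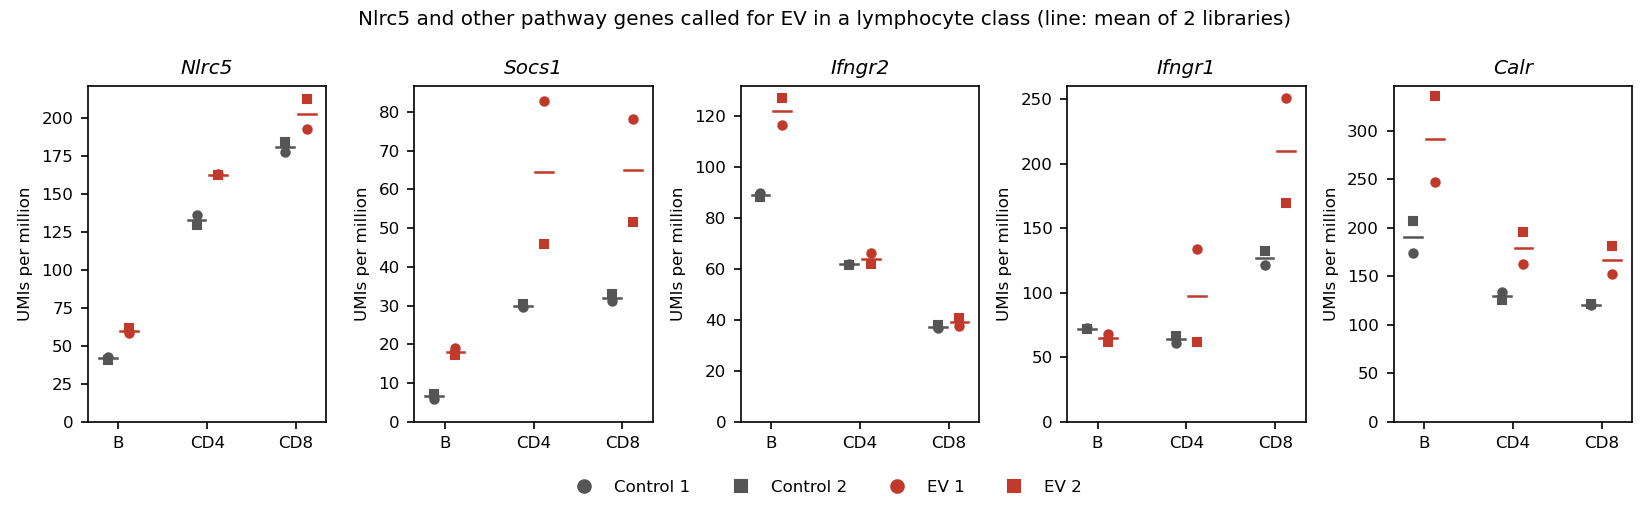
CPM of Nlrc5 and of 4 other pathway genes called for EV against Control in a lymphocyte class, in each library, for B cells (B), CD4 T cells (CD4) and CD8 T cells (CD8), with lines at the mean of 2 libraries. In B cells both EV libraries lie above both Control libraries for Nlrc5 and Ifngr2, and Socs1 is higher in both EV libraries in all 3 classes.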

How the data were processed

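Draining lymph node cells were sequenced as 3′ droplet libraries by the authors, who aligned the reads to mm10 and deposited UMI counts per gene and cell from Cell Ranger 7.1.0. The annotation release is not given in the sources used here. Barcodes with 200 to 5000 genes, at most 20000 UMIs and under 10% mitochondrial UMIs were kept, and the raw counts were summed per library and cell class. Doublets (1.58% to 3.76% by scrublet in scanpy 1.11.5) were kept in the main sums and removed in an alternative. Sums were tested with edgeR 4.0.16 (R 4.3.3; quasi-likelihood test, TMM scaling, filterByExpr, Benjamini-Hochberg adjustment over all genes tested, threshold 0.05). Levels and the difference of the EV effect between 2 classes were fitted with both classes and a term for each library. Expression values are CPM. For members and pathway genes they are taken over the UMIs of tested genes, with TMM scaling. For cell type markers and the correlations they are taken over all UMIs of the class. Alternatives were DESeq2 1.42.0, other filters, thinning each cell to 1000 UMIs, subsets of cells, a replicate block and leaving out each library. Thinning left out cells under 1000 UMIs. These were 18 of 42, 37 of 80, 30 of 91 and 23 of 67 macrophages in Control 1, Control 2, EV 1 and EV 2. Of dendritic cells they were 7 to 18 a library, and of each lymphocyte class 0 to 9. Thinned values of macrophages and dendritic cells thus also rest on another set of cells. On simulated counts for EV against Control in B cells (13281 genes), 73% of genes changed 1 log2 unit and 98% of those changed 2 were called. At 1 log2 unit the share was 66% in CD4 T cells (11949 genes), 75% in CD8 T cells (12202), 40% in macrophages (3458), 47% in dendritic cells (7387) and 33% for the difference of the EV effect between B and CD4 T cells (13151), and at 2 log2 units it was 94% to 98%. The changed genes were drawn only from genes with at least 10 expected UMIs in every sum. The shares thus do not cover members with fewer UMIs, such as Tap1 in macrophages. The same spread between libraries was simulated for every class. The spread fitted to the data, as a coefficient of variation, was 0.092, 0.086 and 0.074 in B, CD4 T and CD8 T cells. It was 0.220 in macrophages and 0.188 in dendritic cells. The simulated spread lay above the lymphocyte values and below the other 2, so these shares are not the power in each class. All members are named, with pathway genes that were called and the 3 smallest p values in a class without calls. Irf1, Irf9 and Rfx5 were named after their values were seen. A regulator and a B cell marker of the planned lists are not reported here, and list counts, medians and sums leave them out. The members and lists were chosen with earlier results of these data known. Gene positions come from GENCODE M21, where 32158 of 32285 identifiers matched, and promoters from the RefSeq table. For EV against Control, p values rest on the spread between 2 libraries a group, which edgeR estimates with information shared across genes. For levels, they rest on how the class difference varied over all 4 libraries, Control and EV together. For the difference of the EV effect, they rest on how the class difference varied between the 2 libraries of each group.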

Additional observations from a re-analysis of the deposited data

Results flagged for a closer look

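The EV effect on Nlrc5 was larger in B cells than in CD8 T cells by 0.35 on the log2 scale (SE 0.075, edgeR adjusted p = 0.0326), which is a tested difference between 2 cell classes under the same contrast. Both EV libraries were above both Control libraries in each of these classes, with estimates of 0.51 in B cells and 0.16 in CD8 T cells. Over the alternatives the adjusted p ranged from 0.00113 without EV 2 to 0.820 in B cells without an Ighd UMI.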

How the results depend on the processing

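With 2 libraries a group and 42 to 91 macrophages a library, small changes could not be resolved, and a fit without 1 library assumes that the lone library varies like the others. For each result below the cause was not tested. No member was called for EV against Control in B cells after thinning to 1000 UMIs (0) or without an Ighd UMI (0), and leaving out a library gave 0 to 1 called members in B cells, 0 to 1 in CD4 T cells, 0 to 3 in CD8 T cells and 0 to 1 in macrophages (B2m without Control 2, adjusted p = 5.8e-05). Thinning left 2 members called higher in macrophages against B cells and 6 in dendritic cells against B cells, where 8.2% and 12.3% of all genes were called higher. For the EV effect in B cells against CD8 T cells, 0 members were called with DESeq2, without upper limits, thinned or without Ighd, and 0 to 2 when a library was left out (Psmb10 and Nlrc5 without EV 1).

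Same-numbered libraries correlated in their deviations by -0.016 to 0.13 over the classes. With 2 libraries a group, the 2 pairs of a class always give the same value, so a shared batch could not be tested. With a replicate block 1 member was called in CD8 T cells (Psmb10, adjusted p = 0.0458) and 1 in macrophages (B2m, adjusted p = 0.0044). The block raised the genes called from 338 to 1182 in B cells, from 130 to 788 in CD4 T cells and from 270 to 1018 in CD8 T cells. Over the other settings the genes called ranged from 107 (without Ighd) to 1392 in B cells (main 338), 80 to 788 in CD4 T cells, 76 to 1018 in CD8 T cells, 0 to 65 in macrophages (main 0) and 0 to 95 in dendritic cells (main 11). Leaving out a library gave 97 to 2584, 94 to 2077, 187 to 2168, 15 to 86 and 13 to 167 in the same order.

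The log2 fold changes that changed sign were all of members not called. Without upper limits they were -0.0014 for B2m and -0.0028 for Tap2 in B cells and -0.013 for Tapbp in CD8 T cells. In B cells without Ighd they were -0.013 for Tap2, -0.13 for Tapbp and -0.056 for Psmb8. Thinned, they were -0.090 for Psmb8 and -0.0010 for Psmb10 in B cells, -0.042 for Tap2, -0.26 for Tapbp and -0.017 for Psmb9 in CD4 T cells, -0.019 for Psmb9 in CD8 T cells, 0.069 for H2-D1 and 0.80 for Psmb10 in macrophages, and -0.060 for Psmb9, -0.11 for Psmb10 and -0.69 for Nlrc5 in dendritic cells. Psmb10 was at 0.12 in macrophages without Cd79a. Leaving out a library, B cell values ran from -0.043 to 0.12 for B2m, -0.067 to 0.096 for Tap2, -0.069 to 0.093 for Psmb8 and -0.0062 to 0.081 for Psmb10. In CD4 T cells they ran from -0.16 to 0.018 for B2m, -0.039 to 0.15 for Tap2 and -0.0091 to 0.15 for Tapbp. In CD8 T cells they ran from -0.11 to 0.023 for B2m, -0.13 to 0.0043 for Tap1, -0.033 to 0.21 for Tap2 and -0.12 to 0.18 for Tapbp. In macrophages they ran from -1.07 to 1.43 for Tap1, -0.52 to 0.082 for Psmb10 and -1.13 to 0.24 for Nlrc5, and in dendritic cells from -0.020 to 0.86 for Psmb8 and -0.038 to 0.63 for Nlrc5.

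The log2 difference of the immunoproteasome ratio became 0.016 in CD8 T cells when thinned, and in dendritic cells -0.10 without upper limits and -0.62 when thinned. Leaving out a library it ran from -0.061 to 0.0071 in B cells, -0.049 to 0.025 in CD4 T cells and -0.017 to 0.014 in CD8 T cells. Of the alternatives for main results, 200 kept the count of called members within 1.5-fold of the main one, or the direction of the ratio. A count within that range can still hide single members that lost or gained a call. Beyond it, 12 gave fewer called members and 7 gave more, and 8 reversed the ratio. For single genes, 607 alternatives kept direction and side of the threshold, 38 changed sign, 10 lost a call and 8 gained one.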
